A study of Homo sapiens with 8 samples.

Results

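HaCaT is a spontaneously immortalized human skin keratinocyte line. Its cells were transfected either with a control siRNA or with an siRNA against p53, and their RNA was hybridised to 1 Affymetrix array for each condition. The comparison of p53 siRNA with control siRNA was made by sample title and uses 2 of the 8 arrays of the series. Neither group received TGF-beta or an adenovirus. The control was a Stealth control siRNA, and p53 was targeted with a single Stealth select siRNA product, so 1 siRNA and 1 array stand behind every value on the p53 side. The other 6 arrays came from cells that carried adenoviral vectors and served below for nothing but the choice of the probe set that stands for a gene. How long after transfection the RNA was taken is not given in the sources. As each group held 1 array, no difference has a replicate check and no test was made.

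The protein p53 is a transcription factor that stops the cell cycle, starts apoptosis and adjusts metabolism after DNA damage and other stress, chiefly by activating target genes such as CDKN1A and MDM2. In many cancers and in several cell lines, HaCaT among them, p53 carries mutations in its DNA-binding domain. Such proteins are usually stable, activate the normal targets poorly, and have been linked to other sets of genes. In stratified epithelia the related protein p63 is the family member that maintains basal keratinocytes. An siRNA is a short double-stranded RNA that directs the cleavage of a matching mRNA.

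The extent of the knockdown is not checked by the values below. There was no array of untransfected HaCaT cells in the comparison, and an effect of the p53 siRNA and an effect of the control siRNA in the opposite direction cannot be told apart. Below, "higher" and "lower" describe the p53 siRNA array relative to the control siRNA array.

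Signals were compared for 9062 of 19775 named genes, namely those whose signal reached 50 on either array or both (each array is scaled to a trimmed mean of 100, and signals under 20 are set to 20 before log2 ratios are taken). The median log2 ratio was 0.02, and the quartiles were -0.34 and 0.34. In all, 213 genes (2.35%) were at least 2-fold higher with p53 siRNA and 558 (6.16%) at least 2-fold lower, which is 8.51% in either direction. Lower genes made up 72.4% of these, and 60.9% when the log2 ratios were corrected by loess for their drift with signal (294 higher and 458 lower). The ratios spread most where signals were dim. At a mean signal of 20 to 100, 16.7% of the genes were at least 2-fold apart, against 1.54% of those above 1600, where the median was 0.16.

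Probe sets of the same gene gave a measure of error. Over 2167 genes with at least 2 probe sets at 100 on both arrays, the SD of the log2 ratio between probe sets of a gene was 0.327, against 0.504 over all such probe sets. This SD does not cover probe sets under 100 on either array. Of 83 genes at least 2-fold higher that had another probe set at 50, the others were higher for 78 and 2-fold higher for 36. Of 207 such lower genes, the others were lower for 189 and 2-fold lower for 110. Probe sets read the same RNA, so this agreement covers the array and not the cultures. As a measure of RNA quality, the 3' over 5' signal ratio of actin came to 3.68 on the control array and 4.01 on the other, and that of GAPDH to 1.07 and 1.04. Bacterial and phage control probe sets with a signal of 50 on both arrays, of which there were 38, had log2 ratios from -0.45 to 0.41.

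Both arrays carried the markers of keratinocytes. All 9 measured keratinocyte markers reached a signal of 50 on both arrays, with log2 ratios between -0.50 and 0.86. Of 8 fibroblast markers 1 reached 50 on each array, COL1A1 at 115 and 74.1, and the summed signal of the list was 173 and 137. Of 6 melanocyte markers MITF alone reached 50, at 64.4 and 131, and the sums were 73.8 and 156. Of 7 leukocyte markers HLA-DRA reached 50 on the control array (53) and was under 20 on the other, with sums of 96.6 and 29.5. None of 6 endothelial markers reached 50 on either array, with sums of 72.4 and 46.5.

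**Figure D1:**
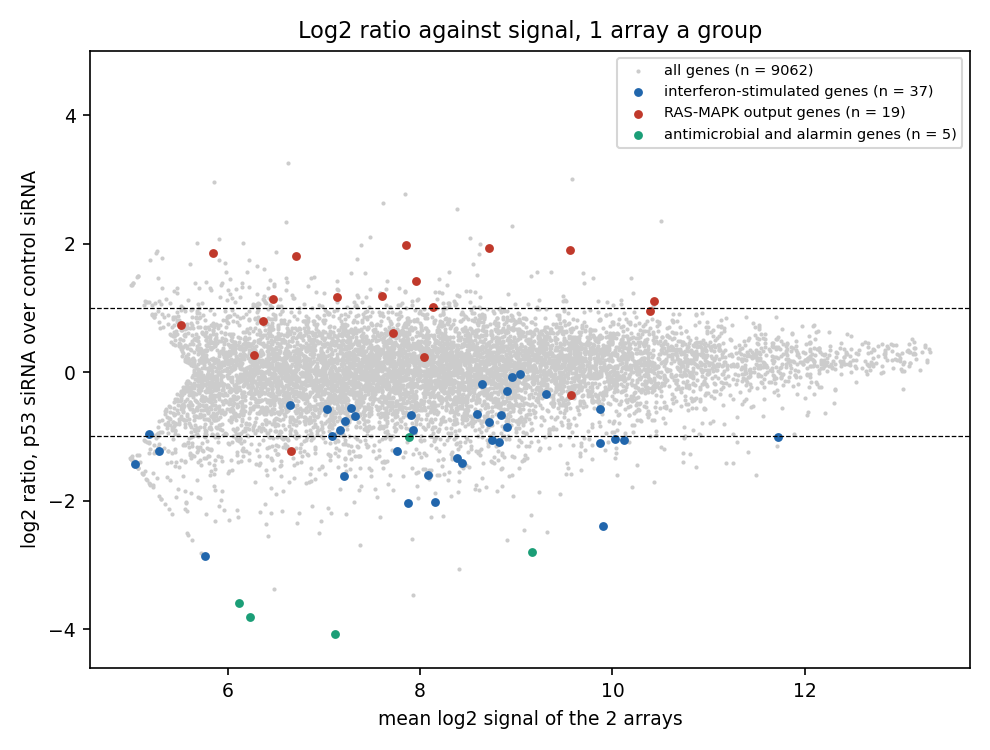
Log2 ratio of p53 siRNA over control siRNA against the mean log2 signal of the 2 arrays, 1 point for each of the 9062 genes, with dashed lines at 2-fold in either direction. The 37 interferon-stimulated genes (blue) lie below 0, most of the 19 RAS-MAPK output genes (red) above it, and the 5 antimicrobial and alarmin genes (green) at or below a log2 ratio of -1.01.

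The genes that wild-type p53 is known to activate did not differ in 1 direction between the arrays. Of the 55 measured targets over 3 lists, 1 was at least 2-fold higher (1.82%) and 7 were at least 2-fold lower (12.7%), against 2.35% and 6.16% of all genes. Their median log2 ratio was -0.08, where that of all genes was 0.02. Over the alternatives of processing, the median lay between -0.27 and -0.05 for targets of arrest and feedback. It lay between -0.29 and 0.04 for apoptotic targets and between -0.13 and 0.19 for metabolic ones.

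Among targets that arrest the cycle or feed back on p53, CDKN1A, the CDK inhibitor p21, had a signal of 406 with control siRNA and 313 with p53 siRNA, a log2 ratio of -0.37. MDM2, the ubiquitin ligase that degrades p53, had 477 and 362 (log2 ratio -0.40). These differences were close to the SD between probe sets of a gene. CCNG1, cyclin G1, was lower, at 742 against 2024 (2.73-fold). RRM2B, the p53-inducible subunit of ribonucleotide reductase, was 2.44-fold lower, at 43.9 against 107. TP53INP1, a stress protein that binds p53 and takes part in autophagy, had 38.1 against 172 (4.51-fold lower by 1 of its 3 probe sets, the others being under 20 on both arrays, so that the mean of the 3 gave -0.72). The largest fold in the list was that of TRIM22, an antiviral ubiquitin ligase that interferon also induces, at 117 against 979.9 (8.35-fold lower). In the other direction GADD45A, a growth arrest and DNA damage protein, was 2.90-fold higher, at 1411 against 486, and was the 1 target in the 3 lists that was at least 2-fold higher.

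The DNA repair gene XPC (log2 ratio -0.91), PHLDA3, an inhibitor of AKT (-0.82), and the stress gene SESN2 (-0.82) were lower by less than 2-fold. PPM1D, ZMAT3, SFN (14-3-3 sigma), RPS27L and PLK2 had log2 ratios between -0.09 and 0.21, within the SD between probe sets of a gene, although other probe sets of RPS27L reached -0.66 and 0.31. In the first list 4 of 28 measured genes (14.3%) were thus 2-fold lower and 1 (3.57%) was 2-fold higher, with a median of -0.18. The shares of all genes were 6.16% and 2.35%.

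Apoptotic targets likewise had 2 of 16 genes (12.5%) 2-fold lower, against 6.16% of all genes, and a median of -0.04. The 2 were TNFSF10, the death ligand TRAIL, at 231 against 1272 (5.51-fold lower), and CASP1, an inflammatory caspase, at 318 against 794 (2.50-fold lower). Both are known to be induced by interferon as well. All 3 probe sets of TNFSF10 were more than 2-fold lower, with log2 ratios from -2.92 to -2.46. The BCL2 family members BAX and PMAIP1 (NOXA) had log2 ratios of -0.03 and 0.35, and the death receptors FAS, TNFRSF10B and TNFRSF10A had -0.05, -0.40 and 0.86. Other measured probe sets reached -0.48 for BAX and -0.66 for FAS.

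Among metabolic targets SAT1, which acetylates polyamines, was 2.28-fold lower, at 984 against 2247. SCO2, an assembly factor of cytochrome c oxidase, had a log2 ratio of 0.70, and TIGAR, which slows glycolysis, had 0.24. The median of the 15 genes was -0.08. In the 3 lists 5, 3 and 4 other members were dim on both arrays, and the measured members not named here were less than 2-fold apart. The plot of the 3 target lists shows that values on both sides of 0 were common in each of them.

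**Figure D2:**
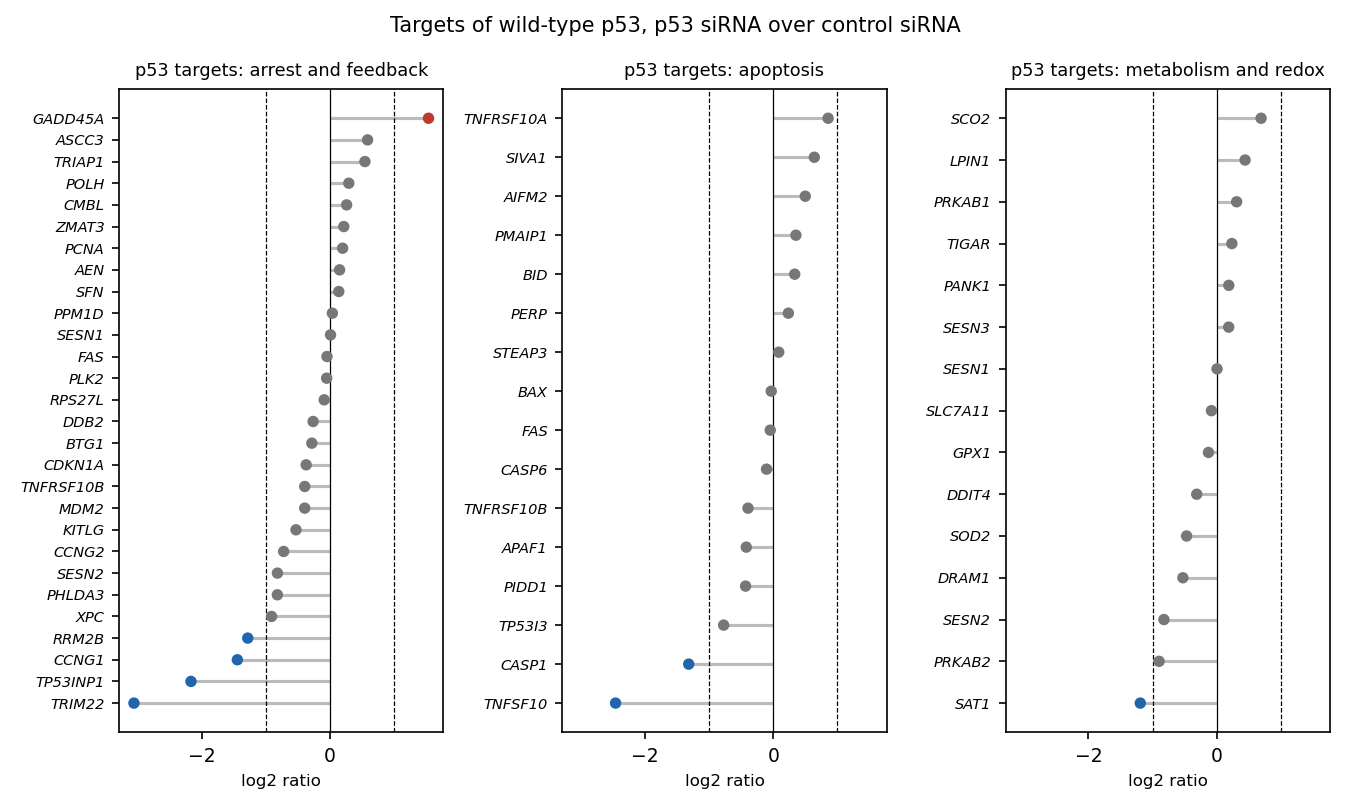
Log2 ratio of p53 siRNA over control siRNA for each measured gene of 3 lists of wild-type p53 targets, with dashed lines at 2-fold in either direction. Genes lie on both sides of 0 in each list, with TRIM22 (-3.06) and TNFSF10 (-2.46) lowest and GADD45A (1.54) highest.

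Regulators and partners of p53 had a median log2 ratio of -0.11. Of 16 measured genes none was 2-fold higher and 2 (12.5%) were at least 2-fold lower, against 2.35% and 6.16% of all genes. The 2 were TP53INP1 as above and TP53INP2, an autophagy protein, whose control signal of 52.3 faced one under 20. With a mean signal of 50 required, 1 was 2-fold lower. WRAP53, a component of the telomerase holoenzyme, had 291 and 301 (log2 ratio 0.05). MDM4, a relative of MDM2 that inhibits p53, had a log2 ratio of -0.43. USP7, a deubiquitinase of p53 and MDM2, had 0.78, and HIPK2, a kinase of p53, had 0.87 at dim signals of 33.0 and 60.3. The acetyltransferases EP300 and CREBBP were at -0.01 and -0.10, and CDKN2A at -0.01. TP73 was dim on both arrays.

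Genes that have been linked to mutant p53 in other cells lay on both sides of 0 as well, with a median of 0.06 over 30 genes. Of these 4 (13.3%) were at least 2-fold higher and none was 2-fold lower, against 2.35% and 6.16% of all genes. BHLHE41 (SHARP1) and CCNG2 (cyclin G2) are genes reported to be held down by mutant p53. BHLHE41 had 485 with control siRNA and 433 with p53 siRNA (log2 ratio -0.16). CCNG2 had 723 and 437 (-0.72), and its 4 probe sets with a signal of 50 lay between -1.32 and -0.50. Neither was thus higher on the p53 siRNA array. The 4 higher genes were MYC, CXCL8 and EGFR, described below, and SREBF2, the regulator of cholesterol synthesis, which was dim at 32.1 and 65.4. The log2 ratio of SREBF2 turned when its 3 probe sets were averaged (-0.0775). The receptor kinase MET (0.08), RAB11FIP1, which takes part in integrin recycling (-0.06), and the nucleotide synthesis gene TYMS (-0.17) lay near 0. GMPS, of the same process, had -0.04 by the probe set that stands for it, but its other 2 measured probe sets were at least 2-fold lower (lowest -1.47).

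Of 22 genes linked to p63 in basal keratinocytes 2 (9.09%) were 2-fold lower and none was 2-fold higher, against 6.16% and 2.35% of all genes, with a median of -0.10. The 2 were KRT15, a basal keratin, at 1775 against 4184 (2.36-fold), and YAP1, a growth-promoting coactivator, at 422 against 1265 (3.0-fold). The 3 probe sets of YAP1 had log2 ratios from -1.59 to -0.53. The 17 measured targets of YAP and TAZ nevertheless had a median of 0.15, with 1 (FJX1, log2 ratio 1.04) 2-fold higher and none 2-fold lower. The shares of all genes were 2.35% and 6.16%. TP63 was not analysed here.

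The genes with the largest folds lay outside the p53 lists, apart from TRIM22 and TNFSF10. By a fixed rule, 15 genes were taken in each direction from those at least 2-fold apart whose brighter signal reached 100 and whose dimmer one was above 20. TCN1, which encodes a vitamin B12 binding protein, was 9.52-fold higher, at 305 against 32.0. HMGA2, an architectural chromatin factor of embryonic and tumour cells, was 8.01-fold higher, at 2168 against 271. This ratio of HMGA2 rests on 1 of its 9 probe sets, since the other 8 reached 50 on neither array, and the mean of all 9 gave a log2 ratio of 0.34. SOX9, a transcription factor of hair follicle and progenitor cells, was 5.81-fold higher, at 803 against 138, and its other probe set gave a log2 ratio of 2.60. FST, follistatin, which binds and blocks activin, was 5.11-fold higher, at 3283 against 642. Its 3 probe sets lay between 2.22 and 2.46 on the log2 scale.

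The hyaluronan synthases HAS2 and HAS3 were both among the 15. HAS2 was 5.06-fold higher, at 219 against 43.2, and HAS3 4.86-fold higher, at 1097 against 226. The metalloproteinases ADAM19 and ADAMTS1 were 6.2-fold and 4.01-fold higher, with control signals of 78.5 and 35.6. IL1B, the cytokine interleukin-1 beta, was 4.30-fold higher, at 371 against 86.3, and IL1R2, its decoy receptor, 4.04-fold higher, from a dim 25.6. GPAT3, a glycerol-3-phosphate acyltransferase, was at 601 against 88.0 (6.83-fold). The remaining genes were SYT14, a synaptotagmin (7.79-fold), the transcription factors TCFL5 (4.27-fold) and NFIC (3.99-fold), and COL13A1, a transmembrane collagen (4.20-fold). The other probe set of TCFL5 gave a log2 ratio of 0.89. The 2 probe sets of NFIC that reached 50 had log2 ratios of 0.78 and 2.0, and the mean of all 4 gave 0.91.

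In the other direction S100A8, a calcium-binding alarmin of stressed epidermis, was 16.8-fold lower, at 33.9 against 569.7. Its second probe set was under 20 on both arrays. TMT1A, a thiol methyltransferase, was 11-fold lower, at 73.2 against 806, by the 1 of its 4 probe sets that reached 50. P2RY6, a receptor for extracellular UDP, was 10.4-fold lower, at 27.7 against 288. LCN2, lipocalin 2, which withholds iron from bacteria, was 6.95-fold lower, at 218 against 1511. The nuclear noncoding RNA MALAT1 was 6.12-fold lower, at 194 against 1187. Of the 9 probe sets of MALAT1 with a signal of 50, 8 were at least 2-fold lower and 1 had a log2 ratio of -0.15.

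Also among the 15 lower genes were VGLL1, a cofactor of TEAD factors (6.43-fold), IVL, involucrin of the cornified envelope (6.01-fold), PLAT, tissue plasminogen activator (5.83-fold), C1RL, a complement-like protease (5.64-fold), and C5orf15 and NHLRC3 (5.58-fold and 5.12-fold). The last 4 of the 15, MX1, TRIM22, TNFSF10 and IFIT2, are all induced by interferon. With the _x_at and _s_at probe sets left out, which may bind related transcripts, HMGA2, S100A8, TMT1A, VGLL1 and C5orf15 kept dim probe sets alone and had a log2 ratio of 0.

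**Figure D3:**
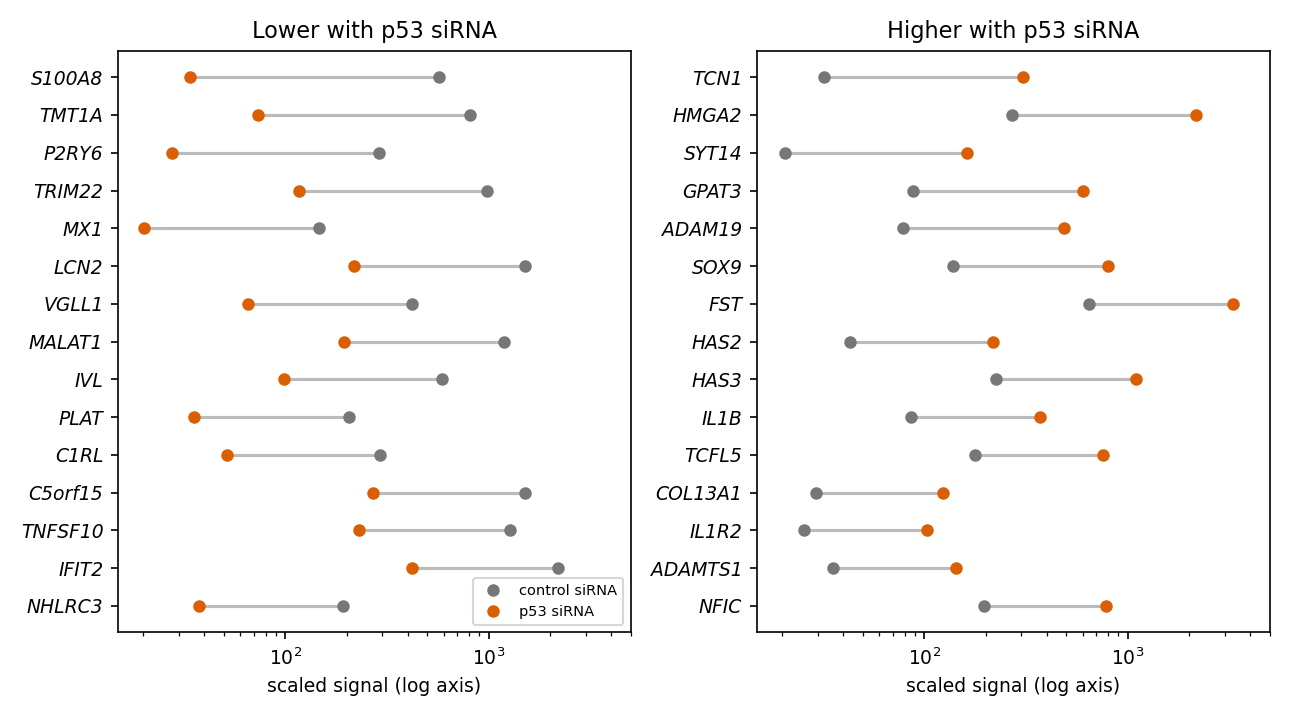
Scaled signal with control siRNA (grey) and with p53 siRNA (orange), on a log axis, for the 15 genes with the largest fold in each direction under the rule for named genes. S100A8 went from 569.7 to 33.9 and HMGA2 from 271 to 2168, each point being 1 array.

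The interferon-stimulated genes were lower on the p53 siRNA array as a group. All 37 measured members had a negative log2 ratio, and 17 of them (45.9%) were at least 2-fold lower, against 6.16% of all genes. Their median was -0.95, and it lay between -1.03 and -0.85 over the alternatives of processing. IFIT2, an antiviral protein that binds foreign RNA, was at 419.9 against 2196 (5.23-fold lower), and its second probe set gave a log2 ratio of -2.0. MX1, a GTPase that blocks influenza virus, was at 20.1, close to the floor, against 146 (7.27-fold). IFI6 was 4.11-fold lower, at 116 against 476, and XAF1, an antagonist of the inhibitor of apoptosis XIAP, 4.06-fold, at 141 against 574. The RNA-degradation pathway gene OAS2 was 3.08-fold lower and the transcription factor IRF1 3.03-fold lower.

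The fold was not the same for every member. ISG15, a ubiquitin-like modifier, was 2.15-fold lower, at 637 against 1368, RSAD2 (viperin) 2.09-fold, and IFIT3 2.02-fold, at 2382 against 4805. IFI44L had 53.7 on the control array and was under 20 on the other, at least 2.68-fold lower. IFIT1 had 768 against 1146 (log2 ratio -0.58). RIGI and EIF2AK2 (PKR), both sensors of double-stranded RNA, had log2 ratios of -0.08 and -0.03, within the SD between probe sets of a gene. The endosomal sensor TLR3 had -0.67 and the cytoplasmic sensor IFIH1 had -0.78. The interferon genes IFNB1, IFNL1, IFNL2, IFNK and IFNE and the chemokine genes CXCL9, CXCL10 and CXCL11 were dim on both arrays, whereas the chemokine CCL5 was 3.69-fold lower, at 149 against 548.

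Many interferon-stimulated genes carry a short promoter element that binds the interferon-activated factors. In a simple spelling, 2 copies of GAAA with any 2 bases between them (GAAANNGAAA, on either strand, overlapping matches allowed), it was found in the RefSeq table in 23 of 41 promoters of 31 measured list members (56.1%), taking 250 bases before each start, and in 3.02% of all 35116 promoters. The stretches of 170 bases before the start are shown for 6 members picked because they hold it, so that the element can be seen beside the folds. They are from RefSeq on GRCh38.p14 and run 5′ to 3′ along the gene. Capitals mark the matches, which overlap in ISG15.
IFI6, chr1:27672193-27672362, minus strand: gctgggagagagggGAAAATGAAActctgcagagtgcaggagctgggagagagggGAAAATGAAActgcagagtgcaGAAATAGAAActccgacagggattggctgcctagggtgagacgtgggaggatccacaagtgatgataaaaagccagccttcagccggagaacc
IFI44L, chr1:78620278-78620447, plus strand: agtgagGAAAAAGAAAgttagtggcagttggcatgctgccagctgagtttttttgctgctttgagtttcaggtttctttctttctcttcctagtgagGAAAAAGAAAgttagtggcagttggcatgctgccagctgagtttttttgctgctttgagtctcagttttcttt
IFIT3, chr10:89327827-89327996, plus strand: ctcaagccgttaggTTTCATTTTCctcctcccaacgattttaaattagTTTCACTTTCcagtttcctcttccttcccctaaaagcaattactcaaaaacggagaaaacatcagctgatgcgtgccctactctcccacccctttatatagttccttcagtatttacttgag
ISG15, chr1:1013327-1013496, plus strand: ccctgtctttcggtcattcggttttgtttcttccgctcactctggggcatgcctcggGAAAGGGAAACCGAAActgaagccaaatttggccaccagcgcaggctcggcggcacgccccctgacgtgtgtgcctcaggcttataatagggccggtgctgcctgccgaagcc
RSAD2, chr2:6877607-6877776, plus strand: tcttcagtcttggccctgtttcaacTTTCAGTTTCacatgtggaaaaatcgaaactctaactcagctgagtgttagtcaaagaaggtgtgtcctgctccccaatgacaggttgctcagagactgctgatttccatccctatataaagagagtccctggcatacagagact
IFIT1, chr10:89392453-89392622, plus strand: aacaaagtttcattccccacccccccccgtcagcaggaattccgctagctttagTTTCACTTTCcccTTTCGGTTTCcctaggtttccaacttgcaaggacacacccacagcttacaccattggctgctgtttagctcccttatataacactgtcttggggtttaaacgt
IFI6 holds 3 matches within this stretch, IFIT3, IFIT1, ISG15 and IFI44L 2 each and RSAD2 1. Over all measured genes with a promoter in the table, 12.1% of 256 genes with a match were 2-fold lower and 0.391% 2-fold higher, against 5.76% and 2.23% of 7338 genes without one. The median log2 ratios were -0.18 and 0.03. Genes with a match include members of the interferon-stimulated list and of the class I list below. These shares are therefore not independent of the values of those lists. A match is a string of letters and does not show that a factor was bound.

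Genes of class I antigen presentation, many of which interferon also induces, were lower too. Of 15 measured members 13 had a negative log2 ratio, 5 (33.3%) were at least 2-fold lower, against 6.16% of all genes, and the median was -0.88. PSMB9, an immunoproteasome subunit, was at 695 against 1582 (2.28-fold lower), and PSMB10 was 2.31-fold lower, at 553 against 1278. HLA-C was at 1723 against 3653 (2.12-fold), although class I genes are so alike that their probe sets may share transcripts. The peptide transporter subunit TAP1 had a log2 ratio of -0.87 and NLRC5, the transactivator of class I genes, -1.45 at dim signals of 87.0 and 31.9. B2M, the light chain of class I molecules, had 8363 and 8434 (log2 ratio 0.01), and -2.08 by a much dimmer probe set, and TAP2 had 0.09.

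The antimicrobial and alarmin genes had the lowest median of the lists among measured members, -3.59. It was -0.51 when no filter was put on dim genes. All 5 measured members were at least 2-fold lower, against 6.16% of all genes. S100A7 (psoriasin) had 281 on the control array and was under 20 on the p53 siRNA array, so it was at least 14.1-fold lower. S100A9, the partner of S100A8, had 240.1 and was likewise under 20, at least 12-fold lower. LCN2 and S100A8 were given above, and SLPI, a protease inhibitor of mucosal secretions, was at 167 against 336 (2.02-fold). The other 5 members with a probe set were dim on both arrays.

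Genes of the list of NF-kappaB targets and cytokines differed in both directions. Of 16 measured genes 3 were at least 2-fold higher and 4 at least 2-fold lower, against 2.35% and 6.16% of all genes, with a median of -0.20. CXCL8 (interleukin-8), which attracts neutrophils, was 3.59-fold higher, at 744 against 207, and IL1A, at 99.0 against 42.7, was 2.32-fold higher beside IL1B. CCL2, which attracts monocytes, was 2.07-fold lower, at 206 against 426, TNFAIP2 2.57-fold lower, at 181 against 466, and IL6 2.66-fold lower at dim signals of 91.1 and 34.3. NFKBIA, the inhibitor that NF-kappaB itself induces, had a log2 ratio of -0.65, and TNFAIP3, another such inhibitor, 0.12.

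Genes induced by RAS and the MAP kinase ERK were higher on the p53 siRNA array. Of 19 measured members 17 had a positive log2 ratio and 11 (57.9%) were at least 2-fold higher, against 2.35% of all genes. Their median was 1.11, and it lay between 0.85 and 1.14 over the alternatives of processing. The phosphatases that switch ERK and related kinases off are themselves ERK-induced, and DUSP6 was at 824 against 216 (3.81-fold higher). DUSP4 was 3.93-fold higher, at 457 against 116. All 3 probe sets of each gene were more than 2-fold higher, with log2 ratios from 1.89 to 2.17 for DUSP6 and from 1.97 to 2.52 for DUSP4. SPRY2, a feedback inhibitor upstream of ERK, was 2.20-fold higher, at 132 against 59.9.

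Transcription factors of the pathway followed the same direction, with exceptions. MYC was 3.73-fold higher, at 1455 against 389.5. ETV5, of the PEA3 group, was 3.63-fold higher, at 109 against 30.2, and FOSL1, a FOS-related subunit of AP-1, 3.48-fold higher, at 195 against 55.9. JUNB, a JUN-related subunit, was lower, at 66.1 against 155 (2.35-fold), and IER2, an immediate early gene, had a log2 ratio of -0.35. The immediate early genes FOS, FOSB and EGR3 were dim on both arrays. The probe set that stands for EGR1 was dim too, while another of its probe sets had a log2 ratio of 0.37. PHLDA1 was 2.15-fold higher, at 2021 against 939, with its 5 measured probe sets between 0.45 and 1.37.

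Ligands of the EGF receptor family and the receptor itself were higher as well. TGFA was 2.67-fold higher, at 405 against 152, EREG (epiregulin) 2.28-fold, at 293 against 128, and HBEGF 2.26-fold, at 212 against 93.8. The other measured probe set of HBEGF gave a log2 ratio of 0.60. NRG1, a ligand of ERBB3 and ERBB4, was 2.95-fold higher, at 1025 against 347. EGFR was at 569 against 237 (2.40-fold). Its 3 measured probe sets lay between 1.07 and 1.26, while the mean with 6 dim ones was 0.36. ERBB2 and ERBB3 had log2 ratios of -0.11 and 0.05. Thus 5 of 7 measured members of the list were 2-fold higher, against 2.35% of all genes. The median of this list was 1.19, but 0.60 with the mean of all probe sets. Some members, TGFA among them, are also in the RAS-MAPK list, so the counts overlap. Together both lists held 23 measured genes, of which 13 (56.5%) were at least 2-fold higher.

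**Figure D4:**
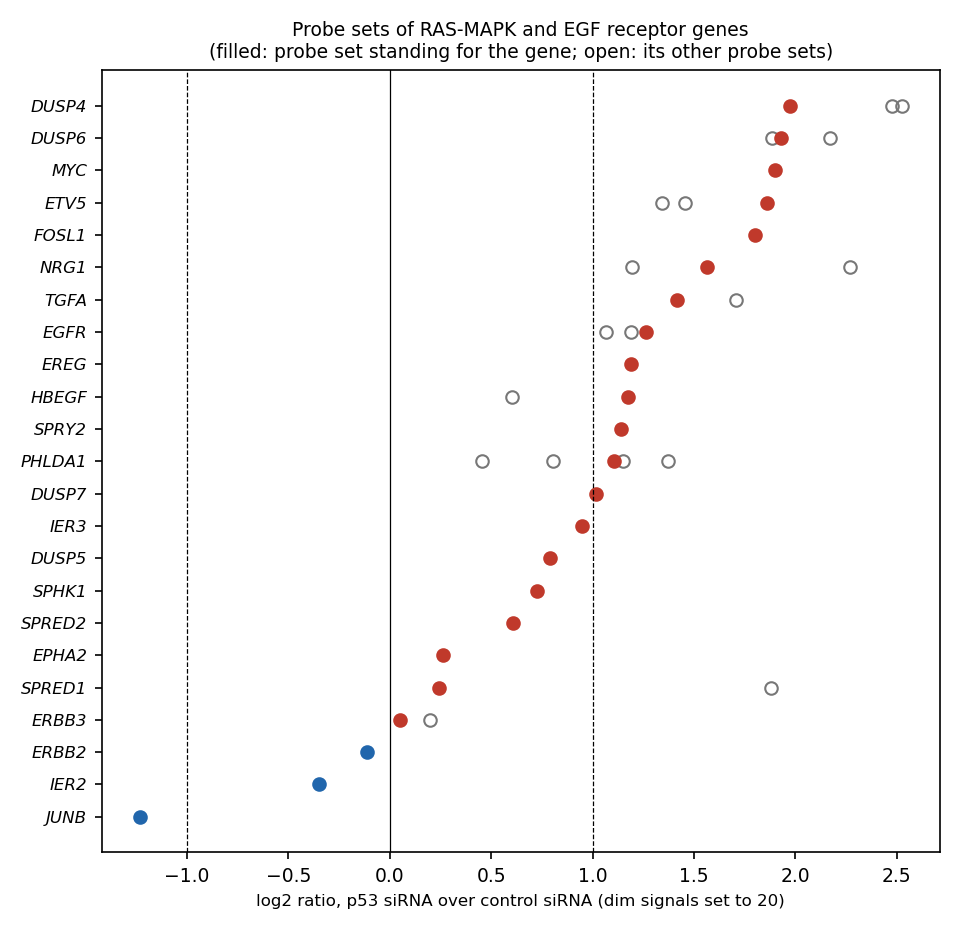
Log2 ratio of p53 siRNA over control siRNA for the measured genes of the RAS-MAPK output and EGF receptor lists, with a filled point for the probe set that stands for the gene and open points for its other probe sets with a signal of 50. Filled points reach 1.97 for DUSP4, and JUNB (-1.23) lies on the other side.

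The medians of the cell cycle lists were close to the 0.02 of all genes. The 40 measured S phase genes had a median of 0.11, with none 2-fold higher and 2 (5.0%) at least 2-fold lower. The 48 genes of G2 and mitosis had a median of -0.04, with none 2-fold higher and 3 (6.25%) at least 2-fold lower. Of all genes, 2.35% were 2-fold higher and 6.16% 2-fold lower. The lower mitotic genes were BIRC5 (survivin), at 349 against 882 (2.53-fold), the kinetochore protein CENPF (2.27-fold, but a log2 ratio of -0.34 without _x_at and _s_at probe sets) and the kinase AURKB (2.22-fold). The 4 measured probe sets of BIRC5 ran from -1.34 to 0.07. By other probe sets the mitotic genes ASPM and BUB3 were more than 2-fold lower (lowest log2 ratios -1.19 and -1.34). The probe sets that stand for them had -0.04 and 0.42. CDK1, the kinase of mitotic entry, had 2809 and 2696 (log2 ratio -0.06), and the proliferation marker MKI67 had 0.48. GINS1, a replication helicase subunit, was 2.12-fold lower, at 793 against 1679, and RFC5, of the clamp loader, had 268 against 712. For RFC5 another probe set, brighter on these arrays, gave a log2 ratio of 0.24, so its direction depends on the probe set. The phosphatase CDC25A (0.84) was higher by less than 2-fold, and the 3 probe sets of the initiation factor MCM10 ran from -0.36 to 0.87, on both sides of 0.

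Among regulators of G1, CCND1 (cyclin D1) was 2.04-fold higher, at 1963 against 961, and RBL2, a relative of the retinoblastoma protein, 2.37-fold lower, at 209 against 496. CDKN2B and CDKN1B had log2 ratios of -0.60 and -0.34. Against 8.51% of all genes, none of 27 measured DNA repair and checkpoint genes was 2-fold apart in either direction. Their median was -0.04, and the checkpoint genes CLSPN (0.94) and CHEK1 (0.78, with another probe set at 0.03) were at the upper end.

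Markers of keratinocyte differentiation split. IVL and KLK10, a secreted serine protease, were lower, KLK10 at 87.7 against 418 (4.77-fold), and so was ELF3, an epithelial ETS factor, at 153 against 488 (3.18-fold). FLG (filaggrin) was 2.10-fold higher, at 458 against 218, and OVOL1, a differentiation factor, 2.25-fold higher, at 261 against 116. KLK7, which degrades desmosomes, had a log2 ratio of 0.97. The median of the 13 measured genes was 0.17, and 23 other members, loricrin and KRT1 among them, were dim on both arrays by the probe set that stands for the gene. One of these, SPRR1A of the cornified envelope, had another probe set at a log2 ratio of 1.02. KLK10 had a log2 ratio of -0.43 by its probe set outside the _s_at class.

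The basal keratins KRT5 and KRT14 had 2100.3 and 1846, and 5169 and 5496, log2 ratios of -0.19 and 0.09. The simple keratins KRT8 and KRT18 had log2 ratios of 0.65 and 0.56. None of 20 junction genes was 2-fold apart by the probe set that stands for it, against 8.51% of all genes. Other probe sets gave log2 ratios of 1.61 for TJP1 and 1.04 for DSC2, and those of CLDN1 lay at -0.62 and 0.58. E-cadherin, CDH1, had 2190.4 against 3093 (-0.50). The mesenchymal genes VIM, ZEB1, ZEB2, SNAI1 and TWIST1 were dim on both arrays, while SNAI2 had a log2 ratio of 0.50 and LGALS1 -0.91.

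Matrix and protease genes contained larger single differences. FN1, fibronectin, was 2.83-fold higher, at 958 against 338, with its 4 measured probe sets, all of the _x_at or _s_at classes, between 1.10 and 1.5. TNC, the matrix protein tenascin C, had a log2 ratio of 1.25. SPARC, a collagen-binding matrix protein, was 2.37-fold lower, at 235 against 558. In the plasminogen system the activators were lower and the receptor higher. PLAT had 35.4 against 206, PLAU (urokinase) 582 against 1189 (2.04-fold), and PLAUR, the urokinase receptor, 355 against 164 (2.16-fold higher). The protease inhibitors SERPINB3 and SERPINB4, near-identical neighbours whose signals may be shared, were lower, SERPINB3 at 41.1 against 171 and SERPINB4 from 113 to under 20. The metalloproteinases MMP12 and MMP13 were 3.04-fold and 2.17-fold lower at signals under 150, and MMP1 had a log2 ratio of 0.17. The integrin subunit ITGA2 had log2 ratios of 0.82 and 1.90 by its 2 probe sets, the first of which stands for the gene. The 3 measured probe sets of ITGB5 ran from -0.35 to 0.83. Medians were 0.19 for 15 matrix genes, 0.22 for 18 protease genes and 0.36 for 8 integrin genes.

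In the TGF-beta and BMP pathways, BMPR2, a BMP receptor, was 3.57-fold lower, at 87.5 against 312, by 1 probe set and had a log2 ratio of -1.16 by the other measured one. TGFBR2 had 0.77. The 5 measured probe sets of SMAD5 ran from -1.14 to 1.14, in both directions, and SMAD3, SMAD4 and SMAD7 had -0.01, 0.01 and -0.01. The 17 measured genes that TGF-beta induces had a median of -0.15. INHBA, the activin A subunit that follistatin binds, had a log2 ratio of 0.83. The WNT inhibitor DKK1 was 2.62-fold higher, at 1347 against 514, and WNT10A 2.46-fold lower, at 106 against 259.7. Of 13 Notch genes 1 (7.69%) was 2-fold higher, against 2.35% of all genes, and the others were less than 2-fold apart. HEY1, a Notch target, was 2.08-fold higher, at 159.8 against 76.7, with another probe set at a log2 ratio of 0.32.

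Ribosome biogenesis genes and proteasome subunits were slightly higher. All 14 measured ribosome biogenesis genes had a positive log2 ratio, with a median of 0.57. Of these 2 (14.3%) were 2-fold higher, against 2.35% of all genes, WDR12 at 1056 against 488 and RRP12 at 233 against 109. Of 26 constitutive proteasome subunits 23 had a positive log2 ratio, none of them 2-fold, against 2.35% of all genes. Their median was 0.27, with PSMC3 highest at 0.93. Ribosomal protein genes had a median of 0.15, which became -0.07 under quantile normalization, and bright genes as a whole had a positive median. The proteasome median lay between 0.15 and 0.27 and the ribosome biogenesis median between 0.34 and 0.65 over the alternatives.

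Lists of metabolic and stress response genes held differences in both directions. Of all genes, 2.35% were 2-fold higher and 6.16% 2-fold lower. HK2, the inducible hexokinase, was 2.96-fold higher, at 541 against 183, while the other 18 measured glycolytic genes were less than 2-fold apart. Of the 19 glycolytic genes 15 had a positive log2 ratio, with a median of 0.28. MSMO1, an enzyme of cholesterol synthesis, was 3.26-fold lower, at 767 against 2500.4, whereas DHCR7 of the same pathway had a log2 ratio of 0.98. The 2 probe sets of HMGCS1, an early enzyme of the pathway, lay on opposite sides of 0, at -0.85 and 0.94. Of 23 measured genes of the amino acid response 3 (13.0%) were 2-fold lower. PHGDH, TRIB3 and DDIT3 were 2.35-fold, 2.20-fold and 2.13-fold lower, and ATF4 itself had -0.36. Of 16 ER chaperone genes 2 (12.5%) were 2-fold higher and 2 (12.5%) 2-fold lower. The chaperone cofactor DNAJC3 was 3.63-fold lower, at 176 against 639, with its 3 measured probe sets between -1.86 and 0.18. HSPA5 (BiP) had 0.63, and -0.35 by a dimmer probe set, and SDF2L1 was 2.31-fold higher, at 732 against 317. EDEM1 and SEL1L had log2 ratios of 1.00 and -1.03. Of 19 NRF2 and oxidative stress genes 2 (10.5%) were 2-fold lower. AKR1C3 and AKR1B10, aldo-keto reductases, were 2.31-fold and 2.10-fold lower, and NQO1, a target of NRF2, had -0.30. Of 12 hypoxia-induced genes 11 had a positive log2 ratio, with a median of 0.38, and 1 (8.33%) was 2-fold higher. ANKRD37 was 2.63-fold higher, at 159 against 60.5, and VEGFA had 0.02. Of 9 heat-shock genes and 8 genes of fatty acid synthesis none was 2-fold apart, against 8.51% of all genes. Their medians were 0.29 and 0.14.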

How the data were processed

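Biotin-labelled RNA of 8 HaCaT samples was measured on Affymetrix arrays, per the labels' protocols, and 2 arrays, each from 1 sample, were compared here. The deposited values are intensities on a linear scale, 1 per probe set, which MAS5 5.0 produced according to the submitters' processing notes. The deposited values show that the authors' arrays have a 2% trimmed mean of about 100. Detection calls were not used.

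Each array was rescaled to that trimmed mean, values under 20 were raised to 20, and log2 was taken (Python 3.11.15, pandas 2.3.3). Of 54675 probe sets 41097 had 1 gene symbol in the platform annotation, 1801 had several and 11777 were unnamed here. 41043 of those with 1 symbol were updated through RefSeq's gene table. A gene was represented by the probe set that was brightest on average (log2) over the 8 arrays, control probe sets left out. Genes with a signal of 50 on 1 of the 2 arrays were described by log2 ratios and the 2-fold counts, with no test, which 1 array a group does not allow.

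The 51 gene lists hold 964 genes, of which 87 were not analysed here for want of a named probe set. The members and lists were chosen with earlier results of these data known. Genes were named from the measured members of the p53 lists, the 15 largest folds in each direction with a signal of 100 on the higher side and above 20 on both arrays, and up to 6 members of other lists with the largest ratio. Others were named after their values were seen. The alternatives were other floors, filters, normalizations and probe set choices. The scripts recovered known folds in simulated data. Those folds were larger than 2-fold and set alike in all probe sets of bright genes. Calls at 2-fold, dim genes and disagreeing probe sets were thus not covered. Promoter sequences are from RefSeq, and other coordinates were not used.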

Additional observations from a re-analysis of the deposited data

How the results depend on the processing

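Averaging every probe set of a gene left 117 genes 2-fold higher and 324 2-fold lower, against the reported 213 and 558. Of the 117 and 324, 106 and 299 were among the reported genes. The number of genes that passed the filter also fell, from 9062 to 7546. Why the counts fell was not tested. Under the other 9 alternatives the counts stayed within 1.5 times the reported ones, from 148 to 294 higher and from 418 to 608 lower. One of them, a mean signal of 50 over both arrays in place of 50 on either, was chosen after seeing the data and gave 183 and 455. The log2 ratio of SREBF2 turned, to -0.0775 for the mean of all probe sets and -1.71 without _x_at and _s_at probe sets, and that of RFC5 turned to 0.24 by the probe set that was brightest on the siRNA arrays. Of genes less than 2-fold apart that the text names, the log2 ratio of HMGCS1 (0.94) became -0.85 by that choice of probe set, the log2 ratio of MCM10 (0.87) -0.20 without _x_at and _s_at probe sets, and the log2 ratio of TNFRSF10B (-0.40) 0.17 with its probe sets averaged. The cause was not tested. Without _x_at and _s_at probe sets FN1, NRG1, IL1A, WNT10A, RRP12, BECN1, MDM2 and BHLHE41 kept dim ones alone, with a log2 ratio of 0. Of 3568 values of named genes under alternatives, 3340 moved by less than the SD between probe sets of a gene, and of 495 list medians 475 did. No paired analysis was possible because each group held 1 array. The number of arrays limits the precision.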

Other observations

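Gene groups not described above were compared between the 2 siRNA arrays. Of 7 measured histone genes 3 were at least 2-fold lower, against 6.16% of all genes, and the median was -0.75. The linker histone gene H1-2 was at 103 against 315 (3.07-fold lower) and H2AC6 at 163 against 408 (2.50-fold), while H2AX, a variant phosphorylated at DNA breaks, had a log2 ratio of -0.75 and the replacement variant H2AZ1 one of 0.09. Histone genes are near-identical in sequence, so their probe sets may read several of them. Of 17 autophagy and lysosome genes 2 (11.8%) were 2-fold lower, against 6.16% of all genes, and 1 with a mean signal of 50 required, with a median of -0.53. BECN1, which starts autophagosome formation, was at 175 against 558 (3.18-fold lower), and had a log2 ratio of -0.89 with the mean of its 3 probe sets. The lysosomal proteases CTSB and CTSD had log2 ratios of -0.55 and -0.58.

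Within the RNA interference machinery AGO2, the Argonaute that cleaves siRNA targets, was 2.05-fold higher, at 231 against 112, while DICER1 had a log2 ratio of -0.44 and AGO4 -0.91. In the BCL2 family BAD, which promotes apoptosis, was 2.04-fold higher, at 180.0 against 88.2, with another probe set at a log2 ratio of 0.27. BCL2L11 (BIM) had 0.96 and MCL1 0.27. None of 9 measured circadian genes was 2-fold apart by the probe set that stands for it, against 8.51% of all genes. Another probe set of CLOCK had a log2 ratio of 1.25. Outside the named genes, 1005 unnamed probe sets reached a signal of 50, of which 32 were 2-fold higher and 101 2-fold lower. The shares of the measured named genes were 2.35% and 6.16%.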
